A study of Mus musculus with 38 samples.

Results

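The genes described here are the deacetylases that stand closest to HDAC6, together with the enzyme that HDAC6 opposes on tubulin. They were taken by name from the count and TPM tables and comprise the class IIa enzymes Hdac4, Hdac5, Hdac7 and Hdac9, the class IIb enzymes Hdac6 and Hdac10, the class IV enzyme Hdac11, the NAD-dependent deacetylase Sirt2 and the alpha-tubulin acetyltransferase Atat1. All 9 genes were among the 29564 genes listed and among the 13765 genes that passed the filter on low counts and were tested. RNA was measured in whole left ventricle homogenates of 38 C57BL6 mice of WT genotype, 1 library per mouse. There were 8 non_failing mice on vehicle and 3 groups with HFpEF, a heart failure in which the ejection fraction is preserved. Of the HFpEF mice, 8 received vehicle (HFpEF+Veh), 11 received TYA-018, a small molecule that inhibits HDAC6 (HFpEF+TYA-018), and 11 received Empagliflozin, which inhibits the renal glucose transporter SGLT2 (HFpEF+SGLT2i). HFpEF was produced by a high-fat diet with L-NAME, a blocker of nitric oxide synthesis, in all 3 HFpEF groups, so a difference from non_failing mice covers both diet and drug. The sample labels give female sex and the study's methods describe male mice. The question addressed was whether RNA of the other deacetylases or of Atat1 moved when the activity of HDAC6 was blocked.

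Class IIa deacetylases bind MEF2 transcription factors in the nucleus and repress their targets, and phosphorylation by CaMK and PKD kinases sends them to the cytoplasm bound to 14-3-3 proteins; this switch is known for its part in hypertrophy of the heart. HDAC6 is a cytoplasmic enzyme with tandem catalytic domains that removes acetyl groups from alpha-tubulin, cortactin and HSP90, and SIRT2 deacetylates the same lysine of alpha-tubulin. ATAT1 adds that acetyl group inside the microtubule lumen. HDAC10 deacetylates polyamines and HDAC11 removes long fatty acyl groups from lysines. A small molecule inhibitor acts on the protein, so RNA levels such as those given here do not measure enzyme activity or tubulin acetylation.

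The genes lie on 8 chromosomes of the GRCm38 assembly. Hdac6 lies on the minus strand of chrX:7930120-7947889 and Atat1 on the minus strand of chr17:35897595-35910075. The class IIa genes lie on the minus strand at chr1:91928779-92195699 (Hdac4), chr11:102194432-102230166 (Hdac5), chr15:97792664-97844502 (Hdac7) and chr12:34047580-34917095 (Hdac9). Hdac10 lies at chr15:89123307-89128700 on the minus strand, Hdac11 at chr6:91156665-91174692 on the plus strand and Sirt2 at chr7:28766735-28788661 on the plus strand. All are protein-coding. The only overlapping protein-coding neighbours lie on the opposite strand: exons of Hdac7 and Slc48a1 share 29 bases, and exons of Sirt2 and Nfkbib share 42 bases. Atat1 shares 644 exon bases with the antisense RNA Gm16279, and Hdac4 3536 with the RNA Gm26720 on its opposite strand, neither of them among the genes listed. The kit marks strand, and the setting used for it in quantification is not given in the sources used here. Coding transcripts of the 9 genes had a mean GC content of 48.8% (Hdac9) to 61.4% (Hdac5), against a median of 51.2% over the genes tested.

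Promoter sequence was matched in RefSeq (GRCm38.p6) for 8 of the 9 genes, all but Hdac10. The 250 bases before the start site are shown for 3 of them: for Hdac6 and Hdac5, whose RNA levels moved together from library to library, and for Atat1, whose CPM moved with neither. The windows are chrX:7947890-7948139 (Hdac6), chr11:102230173-102230422 (Hdac5) and chr17:35910076-35910325 (Atat1), each on the minus strand and written 5′ to 3′, with the GC box GGGCGG, searched on both strands, in capitals.
Hdac6: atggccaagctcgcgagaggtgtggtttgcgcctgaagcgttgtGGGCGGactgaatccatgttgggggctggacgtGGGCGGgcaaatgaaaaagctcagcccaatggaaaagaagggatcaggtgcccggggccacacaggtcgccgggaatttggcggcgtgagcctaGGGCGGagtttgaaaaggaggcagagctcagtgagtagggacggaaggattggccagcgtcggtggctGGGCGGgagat
Hdac5: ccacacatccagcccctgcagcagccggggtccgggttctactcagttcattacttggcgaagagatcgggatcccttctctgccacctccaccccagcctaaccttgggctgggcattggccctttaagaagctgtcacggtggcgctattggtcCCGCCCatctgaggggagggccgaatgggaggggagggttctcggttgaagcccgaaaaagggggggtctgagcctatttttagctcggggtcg
Atat1: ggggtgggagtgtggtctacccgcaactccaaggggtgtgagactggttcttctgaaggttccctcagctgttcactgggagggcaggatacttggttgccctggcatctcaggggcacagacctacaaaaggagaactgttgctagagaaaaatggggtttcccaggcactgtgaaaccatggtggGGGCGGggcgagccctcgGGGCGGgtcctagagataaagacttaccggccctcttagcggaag
The Hdac6 window held 4 GC boxes, the Atat1 window 2 and the Hdac5 window 1. Of all 32851 promoter windows of this length, 32.7% held at least 1. The letters TATAAA, present on either strand in 12.4% of all windows, did not occur in these 3. The Hdac6 window held 17 CpG dinucleotides, the Hdac5 window 12 and the Atat1 window 7, against a median of 6.0 over all windows. A match describes these letters and not a bound site.

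On the TPM scale, which is per transcript length, Hdac5 was the most abundant of the 9 genes at 35.4 ± 7.03 TPM (SD, n = 38 libraries), followed by Sirt2 at 24.6 ± 2.13 TPM and Hdac7 at 20.1 ± 4.95 TPM. These 3 genes stood at the 90.9th, 87.3rd and 84.8th percentile of mean TPM among the genes tested. The other 6 stood between the 41.8th and the 53.5th percentile, with Hdac10 at 4.41 ± 0.988 TPM, Hdac11 at 4.14 ± 0.799 TPM, Hdac6 at 4.05 ± 0.744 TPM, Hdac4 at 3.73 ± 0.879 TPM, Atat1 at 2.94 ± 0.542 TPM and Hdac9 at 2.66 ± 0.377 TPM. In this order, Hdac10 exceeded Hdac11 in 22 of 38 libraries and Hdac11 exceeded Hdac6 in 21 of 38. For neither pair of neighbours did the mean log2 TPM ratio differ from 0 (adjusted p = 0.366 and 0.671, two-sided sign-flip permutation test with 100000 permutations, adjusted over 8 neighbouring pairs). For the other 6 neighbouring pairs the mean ratio differed from 0 by this test. The closest were Hdac6 over Hdac4 (mean log2 ratio 0.13, SD 0.33, 27 of 38 libraries, adjusted p = 0.0244) and Atat1 over Hdac9 (0.14, SD 0.30, 23 of 38 libraries, adjusted p = 0.0138).

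Within class IIa, Hdac5 made up 57.1% ± 3.03 of the summed TPM, Hdac7 32.3% ± 3.41, Hdac4 6.14% ± 1.41 and Hdac9 4.44% ± 1.01 (SD, n = 38). Among the enzymes that act on tubulin, Sirt2 RNA exceeded Hdac6 RNA in every library, with a TPM ratio of 4.40 at the lowest, 6.16 at the median and 9.58 at the highest. As a description, the ratio averaged 7.04 ± 0.693 in non_failing and 5.78 ± 0.914 in HFpEF+Veh mice (SD, n = 8 each). It averaged 6.25 ± 1.03 in HFpEF+TYA-018 and 5.98 ± 1.53 in HFpEF+SGLT2i mice (SD, n = 11 each). Atat1 had 0.738 ± 0.138 times the TPM of Hdac6 (SD, n = 38), with 0.770 ± 0.156 in HFpEF+Veh and 0.723 ± 0.163 in HFpEF+TYA-018 mice.

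The libraries held between 21451631 and 59280407 expected counts. At this depth the gene with the fewest reads, Atat1, had 85.0 counts in its lowest library and a median of 138. Values between groups are given as CPM, a gene's share of the library's reads scaled by TMM, and differences as log2 fold changes from edgeR's quasi-likelihood test, with an adjusted p under 0.05 as the threshold. Cardiomyocyte markers stood between 23960 and 47352 summed CPM in every library. In HFpEF+Veh against non_failing mice 4 of 8 of them were called lower and all 8 were below 0. There 3 of 8 fibroblast markers were called higher, with 7 above 0 and 1 below. Of 8 pericyte and smooth muscle markers 2 were called lower, with 5 above 0 and 3 below. Of 8 endothelial markers 0 were called, with 6 above 0 and 1 at an unadjusted p under 0.05. Of 7 atrial markers tested 2 were called higher, with 4 above 0 and 3 below. Of 8 adipocyte markers only 1, Cidea, passed the filter on low counts, and it was called higher. In HFpEF+TYA-018 against HFpEF+Veh 0 markers of these lists were called with edgeR. Of the cardiomyocyte markers 7 of 8 were above 0 there (4 at an unadjusted p under 0.05). Below 0 were 8 of 8 fibroblast markers (2 at an unadjusted p under 0.05) and 7 of 8 endothelial markers (2). Hepatocyte markers, summed over a list of 8, reached 2091 CPM in the HFpEF+Veh library V2523 against a group median of 32.5. Their non_failing median was 108 CPM and their highest non_failing library, V2504, held 497 CPM, against at most 33.8 CPM in HFpEF+TYA-018 and 35.3 CPM in HFpEF+SGLT2i mice. In both treated groups 8 of 8 were called lower than in HFpEF+Veh and 7 of 8 lower than in non_failing mice. The calls against HFpEF+Veh come from fits that hold V2523, and their count without it is not given here. Albumin (Alb) alone averaged 136 CPM in HFpEF+Veh, with 1 of 8 libraries above the non_failing mean, and 0.791 CPM in HFpEF+TYA-018 mice. In homogenates, fewer cells of a type and less RNA per cell cannot be told apart.

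With edgeR, 0 of the 9 genes passed the threshold in any comparison of groups, which does not make every difference small. The largest log2 fold change was 0.36, for Hdac4 in HFpEF+TYA-018 against HFpEF+Veh, where the median size over all genes was 0.13. In HFpEF+Veh against non_failing mice, where 3.15% of all genes tested passed the threshold (1.77% higher, 1.38% lower), 0 of the 9 did, and 0 had an unadjusted p under 0.05. In HFpEF+TYA-018 against HFpEF+Veh, where 1.93% of all genes passed (0.835% higher, 1.10% lower), 0 of 9 did and 1 had an unadjusted p under 0.05. In HFpEF+SGLT2i against HFpEF+Veh, where 0.850% passed (0.131% higher, 0.719% lower), the counts were also 0 and 1. That share of all genes rests on V2523, as 117 genes passed with it and 2 without it. DESeq2 likewise called 0 of 9 in these 3 comparisons, with 0, 1 and 1 genes at an unadjusted p under 0.05. With limma on log2(TPM + 1) 0 of 9 were called in each, with 2, 0 and 0 genes at an unadjusted p under 0.05. The 9 log2 fold changes had a median of 0.061, -0.0097 and 0.12, against 0.011, -0.0088 and 0.0060 over all genes.

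**Figure D1:**
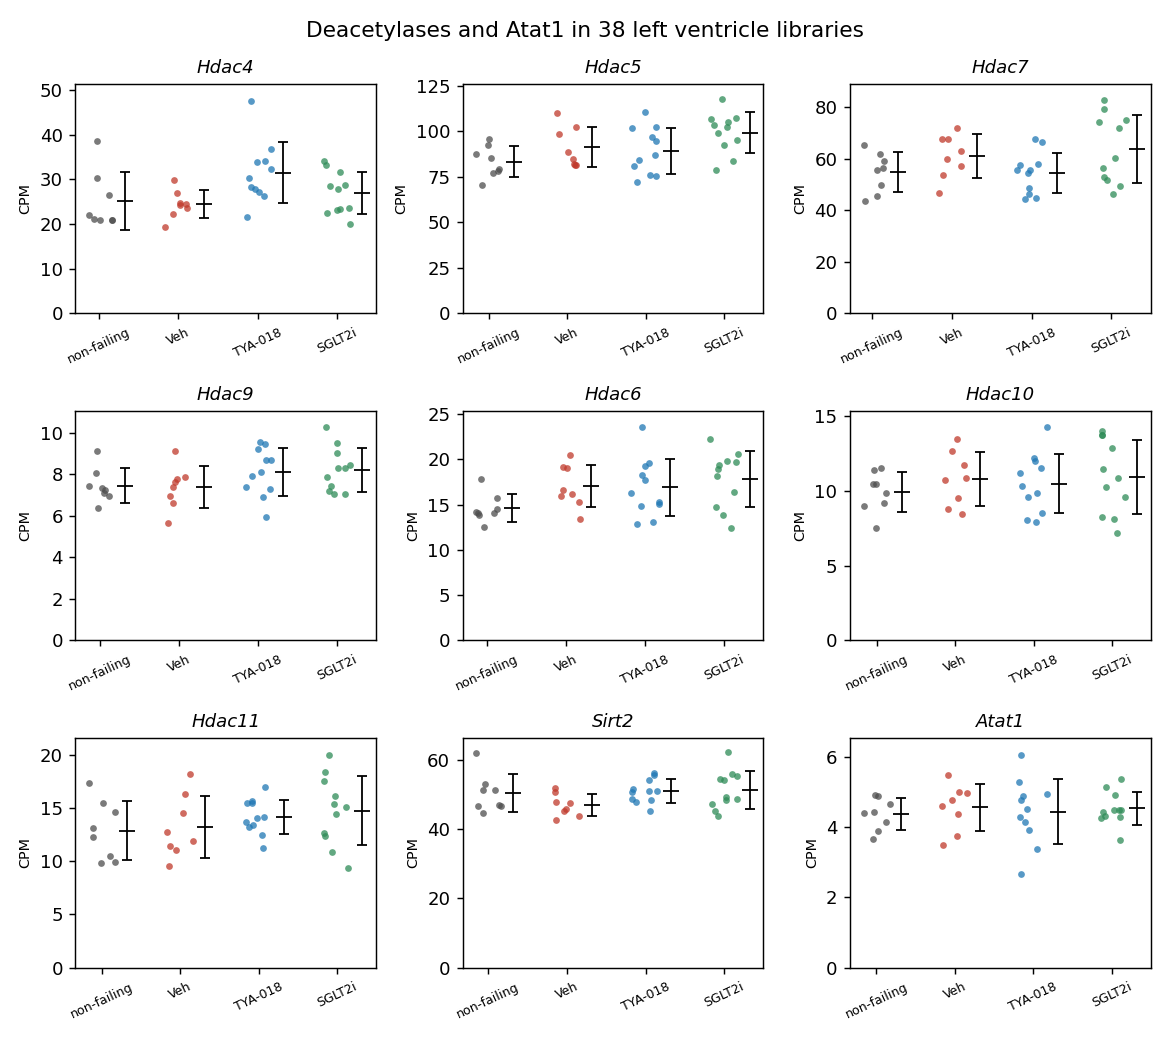
Level of each of the 9 genes in CPM (linear axis from 0) in the 38 libraries, 1 point per library, with the mean and SD of each group beside its points (non_failing and HFpEF+Veh n = 8, HFpEF+TYA-018 and HFpEF+SGLT2i n = 11). For every gene the ranges of the 4 groups overlapped.

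Hdac6 itself, the target of TYA-018, ranged from 12.6 to 17.8 CPM in non_failing mice, with a median of 14.1. In HFpEF+Veh mice it ranged from 13.5 to 20.4 CPM (median 16.4), in HFpEF+TYA-018 mice from 12.9 to 23.6 CPM (median 16.3) and in HFpEF+SGLT2i mice from 12.4 to 22.3 CPM (median 18.9). The non_failing group had the lowest median. Its highest library, V2501, stood above the HFpEF+Veh and HFpEF+TYA-018 medians, and the ranges of the groups overlapped. The log2 fold change of HFpEF+Veh over non_failing mice was 0.22 (SE 0.11, 95% interval -0.0093 to 0.45, edgeR adjusted p = 0.339), and 7 of 8 HFpEF+Veh libraries were above the non_failing mean. With 1 surrogate variable it was 0.12 (adjusted p = 0.418). On the log2(TPM + 0.1) scale it was 0.34 (limma adjusted p = 0.183), where the median of all genes was 0.086. Between HFpEF+TYA-018 and HFpEF+Veh mice the difference was -0.0097 (95% interval -0.22 to 0.20, edgeR adjusted p = 0.974), an interval that runs from 0.857-fold to 1.15-fold. HFpEF+TYA-018 libraries lay above the HFpEF+Veh mean in 5 of 11 cases and below it in 6.

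Atat1, the acetyltransferase, varied from 3.67 to 4.92 CPM in non_failing mice (median 4.42) and from 3.50 to 5.49 CPM in HFpEF+Veh mice (median 4.70). Its range was 2.67 to 6.07 CPM in HFpEF+TYA-018 mice (median 4.52) and 3.63 to 5.39 CPM in HFpEF+SGLT2i mice (median 4.49). Both the lowest and the highest of the 38 values belonged to HFpEF+TYA-018 libraries, V2555 and V2550. The log2 fold change of HFpEF+TYA-018 over HFpEF+Veh mice was -0.039 (SE 0.11, 95% interval -0.26 to 0.18, edgeR adjusted p = 0.882). In HFpEF+Veh over non_failing mice it was 0.061 (95% interval -0.17 to 0.29, edgeR adjusted p = 0.848). This difference passed in 0 of the 9 other settings, where the highest value was 0.31, on the log2(TPM + 0.1) scale. The median of all genes was 0.086 on that scale.

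Sirt2, the other tubulin deacetylase, was the steadiest gene, with a coefficient of variation of 9.33% over the 38 libraries. It ranged from 44.8 to 62.0 CPM in non_failing mice (median 49.2), from 42.7 to 51.9 CPM in HFpEF+Veh mice (median 46.6), from 45.3 to 56.4 CPM in HFpEF+TYA-018 mice (median 51.0) and from 44.0 to 62.3 CPM in HFpEF+SGLT2i mice (median 49.2). HFpEF+Veh mice had the lowest median. Sirt2 was above the HFpEF+Veh mean in 10 of 11 HFpEF+TYA-018 libraries (log2 fold change 0.12, 95% interval -0.0078 to 0.24, edgeR adjusted p = 0.322) and in 9 of 11 HFpEF+SGLT2i libraries (0.13, 95% interval 0.0040 to 0.26, adjusted p = 0.476). Neither passed the threshold, and on the log2(TPM + 1) scale the first difference was -0.019.

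Hdac4, which carries the class IIa response to CaMKII in cardiomyocytes, had the largest difference between treated and untreated HFpEF mice. It ranged from 19.4 to 29.8 CPM in HFpEF+Veh mice (median 24.4) and from 21.6 to 47.6 CPM in HFpEF+TYA-018 mice (median 30.3). In non_failing mice it ranged from 20.8 to 38.6 CPM (median 21.5) and in HFpEF+SGLT2i mice from 20.0 to 34.1 CPM (median 27.7). The HFpEF+TYA-018 group held the highest library of all, V2550, and the non_failing library V2510, at 38.6 CPM, was the second highest. Hdac4 was above the HFpEF+Veh mean in 10 of 11 HFpEF+TYA-018 libraries, with a log2 fold change of 0.36 (SE 0.13, 95% interval 0.11 to 0.62), an unadjusted p of 0.00670 and an adjusted p of 0.116 by edgeR's quasi-likelihood test. Without V2550 the log2 fold change was 0.28. It passed with 1 surrogate variable in the fit (0.36, adjusted p = 0.0478), where 7.42% of all genes passed, and it was 0.14 on the log2(TPM + 1) scale (adjusted p = 0.559, limma). Scaling by library size alone lowered the median of all genes by 0.13 in this comparison, and Hdac4 then stood at 0.24. Against non_failing mice the difference was 0.32 (95% interval 0.066 to 0.58, edgeR adjusted p = 0.113), and it passed when the non_failing library V2510 was left out (0.44, adjusted p = 0.0239). It passed in 0 of the 9 other settings, where the lowest value was 0.15, on the log2(TPM + 1) scale (limma adjusted p = 0.591).

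Hdac5, the most abundant class IIa gene, ranged from 70.4 to 95.8 CPM in non_failing mice (median 82.5) and from 81.7 to 110 CPM in HFpEF+Veh mice (median 86.9). The range was 72.4 to 110 CPM in HFpEF+TYA-018 mice (median 86.9) and 78.7 to 118 CPM in HFpEF+SGLT2i mice (median 103). The medians of the vehicle and TYA-018 groups were the same to 3 digits, and HFpEF+SGLT2i mice had the highest. The log2 fold change of HFpEF+TYA-018 over HFpEF+Veh mice was -0.031 (95% interval -0.20 to 0.14, edgeR adjusted p = 0.879) and that of HFpEF+SGLT2i over HFpEF+Veh mice was 0.12 (95% interval -0.046 to 0.29, adjusted p = 0.656).

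Hdac7, known best from endothelial cells, ranged from 43.5 to 65.4 CPM in non_failing mice (median 56.0), from 46.6 to 72.0 CPM in HFpEF+Veh mice (median 61.4), from 44.2 to 67.5 CPM in HFpEF+TYA-018 mice (median 55.5) and from 46.4 to 82.9 CPM in HFpEF+SGLT2i mice (median 60.1). In 9 of 11 HFpEF+TYA-018 libraries it was below the HFpEF+Veh mean, with a log2 fold change of -0.16 (95% interval -0.38 to 0.057, edgeR adjusted p = 0.450). It was -0.060 with the length offset and -0.29 with library size alone. Endothelial markers, summed over a list of 8, ranged from 1690 to 2660 CPM in HFpEF+Veh and from 1771 to 2748 CPM in HFpEF+TYA-018 mice, and their part in the Hdac7 values was not tested.

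Hdac9, a class IIa gene whose transcripts can lack the catalytic part, ranged from 5.65 to 9.11 CPM in HFpEF+Veh mice (median 7.51) and from 5.92 to 9.54 CPM in HFpEF+TYA-018 mice (median 8.09). The 2 ranges covered nearly the same values. Its log2 fold change was 0.13 between HFpEF+TYA-018 and HFpEF+Veh mice (95% interval -0.048 to 0.32, edgeR adjusted p = 0.451) and 0.16 between HFpEF+SGLT2i and HFpEF+Veh mice (95% interval -0.025 to 0.34, adjusted p = 0.577).

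Hdac10 ranged from 8.43 to 13.5 CPM in HFpEF+Veh and from 7.96 to 14.3 CPM in HFpEF+TYA-018 mice, with medians of 10.8 and 10.3. Hdac11 ranged from 9.59 to 18.2 CPM in HFpEF+Veh and from 11.3 to 17.0 CPM in HFpEF+TYA-018 mice, with medians of 12.3 and 14.1. The vehicle libraries of Hdac11 enclosed the TYA-018 libraries on both sides. The log2 fold changes were -0.037 for Hdac10 (95% interval -0.29 to 0.21, edgeR adjusted p = 0.907) and 0.098 for Hdac11 (95% interval -0.16 to 0.36, adjusted p = 0.731).

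**Figure D2:**
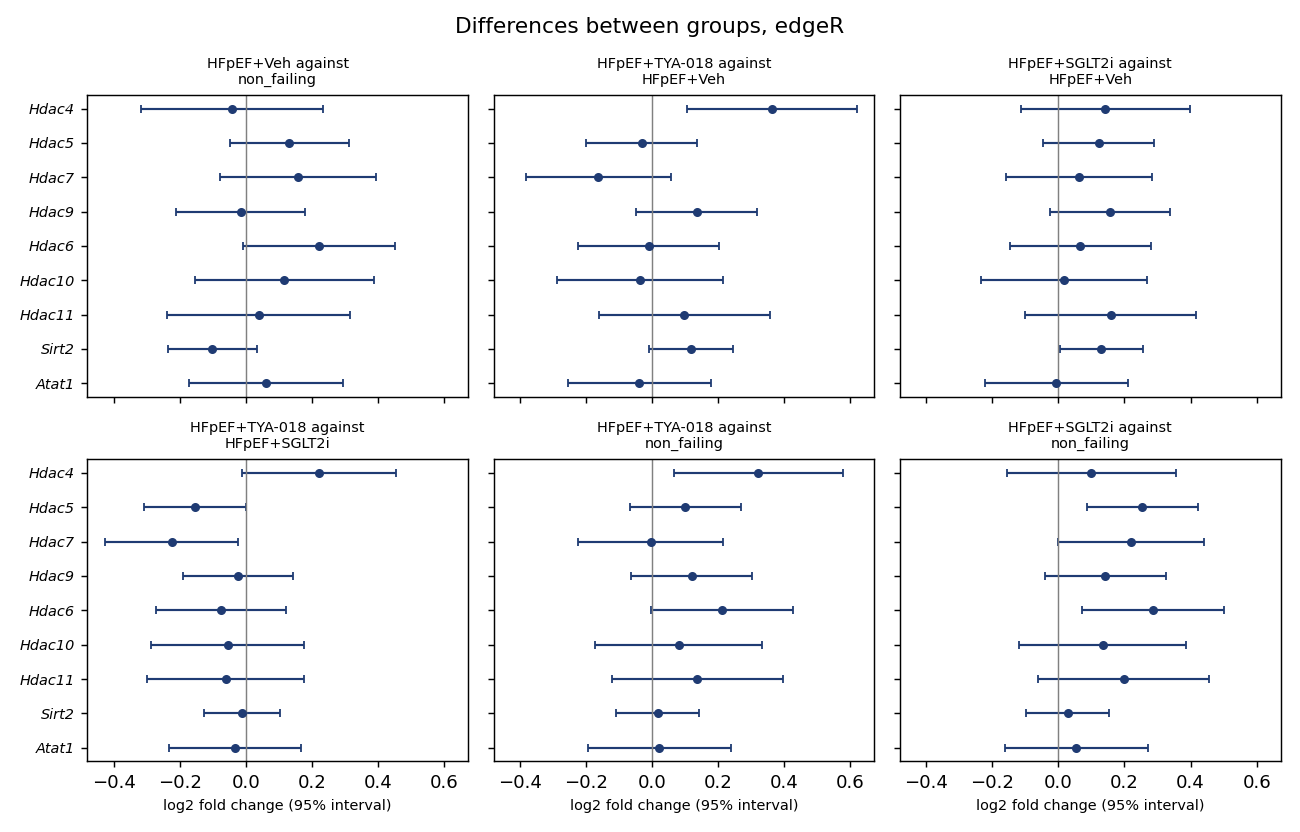
Log2 fold change (points) with its 95% interval (bars) for the 9 genes in the 6 comparisons of groups, from 1 edgeR fit of all 38 libraries. In HFpEF+TYA-018 against HFpEF+Veh the intervals lie within -0.38 to 0.62, and that of Hdac4 is the only one there that leaves out 0.

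Set together, the 95% intervals of the 9 genes in HFpEF+TYA-018 against HFpEF+Veh lay between 0.767-fold and 1.54-fold, with Hdac7 at the lower and Hdac4 at the upper end. In HFpEF+SGLT2i against HFpEF+Veh they lay between 0.850-fold and 1.34-fold. With any 1 library left out, edgeR called 0 of 9 genes in either comparison. Over the 9 other settings the log2 fold changes of HFpEF+TYA-018 over HFpEF+Veh mice ran from 0.14 to 0.36 for Hdac4, from -0.16 to -0.021 for Hdac5, from -0.29 to -0.060 for Hdac7, from -0.0014 to 0.19 for Hdac9, from -0.13 to 0.0014 for Hdac6, from -0.19 to -0.023 for Hdac10, from -0.036 to 0.10 for Hdac11, from -0.020 to 0.12 for Sirt2 and from -0.23 to -0.040 for Atat1. Those of HFpEF+SGLT2i over HFpEF+Veh mice lay between -0.13 (Atat1) and 0.21 (Hdac9). Without V2523, the library with the high hepatocyte markers, the log2 fold changes of HFpEF+TYA-018 over HFpEF+Veh mice were 0.32 for Hdac4 (edgeR adjusted p = 0.163), -0.049 for Hdac5 (0.787), -0.21 for Hdac7 (0.291), 0.14 for Hdac9 (0.405), -0.049 for Hdac6 (0.831), -0.071 for Hdac10 (0.793), 0.18 for Hdac11 (0.454), 0.14 for Sirt2 (0.235) and 0.0065 for Atat1 (0.979). Those of HFpEF+SGLT2i over HFpEF+Veh mice then ran from -0.021 (Hdac10) to 0.24 (Hdac11), with edgeR adjusted p from 0.418 to 0.974. In HFpEF+Veh over non_failing mice they ran from -0.12 (Sirt2) to 0.26 (Hdac6), with edgeR adjusted p from 0.202 to 0.996.

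Both drugs were also compared directly, in HFpEF+TYA-018 against HFpEF+SGLT2i mice. Of all genes tested 0% passed (0 of 13765, with 1821 at an unadjusted p under 0.05; DESeq2 called 134 and limma on log2(TPM + 1) called 0), and 0 of the 9 genes passed by edgeR, DESeq2 or limma, with 1, 2 and 0 at an unadjusted p under 0.05. Hdac7 was lower under TYA-018 by a log2 fold change of -0.22 (95% interval -0.43 to -0.022, edgeR adjusted p = 0.325, below the HFpEF+SGLT2i mean in 9 of 11 libraries). It passed with 1 surrogate variable (-0.26, adjusted p = 0.0223), where 4.29% of all genes passed, and it was -0.042 once the fit took up the effective length of each gene in each library. Hdac5 differed by -0.15 (95% interval -0.31 to 0.00047) and Hdac4 by 0.22 (95% interval -0.012 to 0.46), with edgeR adjusted p = 0.380 and 0.409. The former was -0.072 with the length offset, and the latter was 0.094 with it and 0.024 on the log2(TPM + 1) scale.

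Treated HFpEF mice were last set against non_failing mice, a difference that contains the model as well as the drug. In HFpEF+TYA-018 against non_failing mice, 7.39% of all genes (4.00% higher, 3.39% lower) and 0 of the 9 passed (1 at an unadjusted p under 0.05 by edgeR, 1 by DESeq2 and 0 by limma, with 0 called by each). In HFpEF+SGLT2i against non_failing mice, 6.45% of all genes (3.46% higher, 2.99% lower) and 0 of the 9 passed with edgeR, with 2 at an unadjusted p under 0.05, and limma called 0, with 2 at an unadjusted p under 0.05, while DESeq2 called 1, Hdac5, beside 8.20% of all genes. With edgeR, 22.0% and 19.6% of all genes had an unadjusted p under 0.05 in these 2 comparisons. Hdac5 was above the non_failing mean in 10 of 11 HFpEF+SGLT2i libraries, with a log2 fold change of 0.25 (SE 0.083, 95% interval 0.085 to 0.42) and adjusted p = 0.0591 by edgeR and 0.0407 by DESeq2. Without 1 library it passed in 6 of 38 fits, those lacking V2501, V2510, V2543, V2550, V2562 or V2564 (adjusted p from 0.0264 to 0.0494). Over the 9 other settings its adjusted p ran from 0.0140 (1 surrogate variable) to 0.333 (limma on log2(TPM + 0.1)). Hdac6 was above that mean in 9 of 11 HFpEF+SGLT2i libraries (0.29, 95% interval 0.072 to 0.50, edgeR adjusted p = 0.104) and in 9 of 11 HFpEF+TYA-018 libraries (0.21, 95% interval -0.0037 to 0.43, adjusted p = 0.237). The first of these passed when the HFpEF+SGLT2i library V2562, the lowest of its group, was left out (0.33, adjusted p = 0.0392) and with 1 surrogate variable (0.25, adjusted p = 0.0147; 12.8% of all genes passed), and the second was then 0.12 (adjusted p = 0.266). These 2 comparisons and that of HFpEF+Veh share the non_failing libraries.

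The effective length of a gene in a library, which moves with the mix of its isoforms, served as a second readout. It averaged 3155 bases for Hdac6 with a coefficient of variation of 6.54%, and the variation reached 15.7% for Atat1 and 17.4% for Hdac7, against a median of 6.30% over the genes tested. For Hdac6 it averaged 3111 bases in HFpEF+Veh and 3057 bases in HFpEF+TYA-018 mice (log2 difference -0.026, 95% interval -0.11 to 0.059). With limma, 0 of the 9 genes passed in any of the 6 comparisons, with 2 of 54 values at an unadjusted p under 0.05, and in 5 comparisons 0% of all genes passed. The exception over all genes was HFpEF+TYA-018 against HFpEF+SGLT2i, where 10.5% of all genes differed in length and 0 of the 9 passed. There Hdac7 averaged 2112 bases under TYA-018 and 2474 bases under Empagliflozin (log2 difference -0.25, 95% interval -0.45 to -0.043, limma adjusted p = 0.0772), and it passed without either of 2 HFpEF+TYA-018 libraries, V2543 (adjusted p = 0.0216) or V2548 (0.0323). The median log2 length difference over all genes was -0.066 in this comparison. Over the 54 tests by permutation of libraries, 2 had an unadjusted p under 0.05, the smaller being 0.0342 (exact) for Atat1 in HFpEF+Veh against non_failing mice, and both had an adjusted p of 0.507 over the 54.

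Correlation between the 9 genes was measured from library to library within groups. Log2 CPM was centred within each group and the 36 pairs of genes were tested with 100000 permutations within groups; 15 pairs passed after adjustment over the 36, 10 positive and 5 negative. The smallest r of these 15 was 0.41 in size. As a description, 41.7% of the 36 pairs and 20.6% of all pairs of the 13765 genes tested were at least that large, and the median size of r was 0.32 over the 36 and 0.21 over all pairs. Among Hdac5, Hdac6, Hdac7 and Hdac10 all 6 pairs were positive and passed. Hdac6 and Hdac10, the class IIb pair, had the highest r of all at 0.81 (Spearman's rho 0.75, adjusted p = 9e-05 for both by permutation), with r = 0.74 without the 2 libraries farthest from the median and 0.47 to 0.91 within the 4 groups. Hdac7 and Hdac10 followed with r = 0.74 (rho 0.73, permutation adjusted p = 0.000144 and 9e-05), and Hdac5 and Hdac6 with r = 0.70 (rho 0.67, permutation adjusted p = 9e-05 for both). Without the 2 farthest libraries these were 0.71 and 0.60. An adjusted p of 9e-05 comes from the smallest p these permutations can give.

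Hdac11 and Sirt2 went the other way. They correlated with each other at r = 0.71 (rho 0.72, permutation adjusted p = 9e-05 for both, r = 0.68 without the 2 farthest libraries), and Hdac7 and Hdac11 ran against each other at r = -0.74 (rho -0.71, permutation adjusted p = 9e-05 and 0.000144, r = -0.68 without the 2 farthest). Within groups the r of Hdac7 with Hdac11 was between -0.91 and -0.39. Atat1 did not move with Hdac6, with r = -0.0065 (rho -0.12, permutation adjusted p = 0.973 and 0.556, r = -0.23 without the 2 farthest), and by r passed with Sirt2 only (r = 0.41, rho 0.47, permutation adjusted p = 0.0138 and 0.00855, r = 0.52 without the 2 farthest). By rho it also passed with Hdac9 (0.41, permutation adjusted p = 0.0402) and Hdac11 (0.37, 0.0499). Hdac9 passed by r with none of the other 8.

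**Figure D3:**
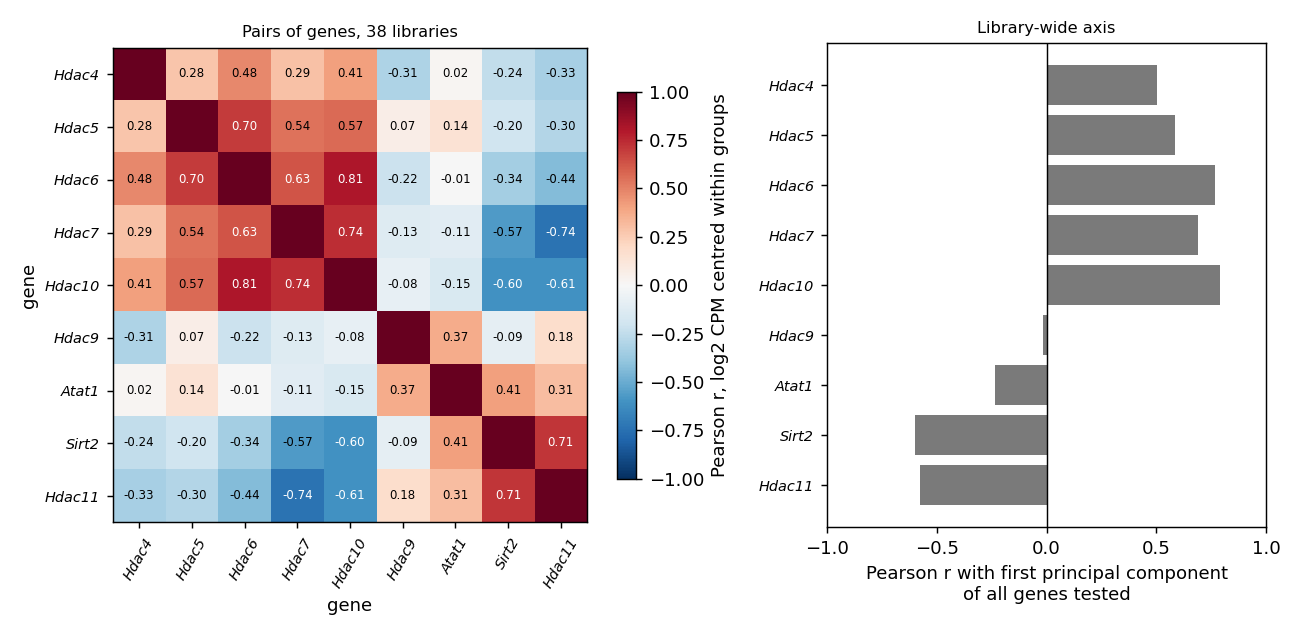
Left, Pearson r of log2 CPM, centred within groups, for each pair of the 9 genes over 38 libraries; right, Pearson r of each gene's log2 CPM with the first principal component of all genes tested. Hdac5, Hdac6, Hdac7 and Hdac10 are positive with each other and with the component, and Sirt2 and Hdac11 are negative with both. The sign of the component was set to make r with Hdac6 positive.

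These pairs were set beside the variation over all genes. A principal component has no sign of its own, and the sign used here was set to make r with Hdac6 positive. The first principal component of the 13765 genes held 15.7% of the variance, and over 38 libraries it had r = 0.79 with Hdac10, 0.77 with Hdac6, 0.69 with Hdac7, 0.59 with Hdac5 and 0.50 with Hdac4, against -0.60 with Sirt2 and -0.58 with Hdac11. In units of a component of length 1, its mean score was -0.140 ± 0.108 over the 8 non_failing libraries (SD), 0.0158 ± 0.206 for HFpEF+Veh, 0.0609 ± 0.128 for HFpEF+TYA-018 and 0.0291 ± 0.158 for HFpEF+SGLT2i, so non_failing libraries were lower on average, with ranges that overlapped, and its part in the differences of the 9 genes from non_failing mice was not tested. By r with the component, Atat1 (-0.24) and Hdac9 (-0.016) stood nearest to 0, and the median size of r over all genes was 0.37. The component itself had r = -0.76 with the median effective length of a library and -0.52 with its total count. The part of isoform mix, bias correction, depth or RNA quality in it was not tested. After its removal, an alternative chosen after the data were seen, 2 of the 36 pairs passed, Hdac6 with Hdac10 (r = 0.51) and Hdac5 with Hdac6 (r = 0.50, permutation adjusted p = 0.0457 for both). On the log2(TPM + 1) scale 9 pairs passed, 8 of them among the 15 and the other one Hdac5 with Atat1 (r = 0.43, permutation adjusted p = 0.0411). Hdac11 and Sirt2 had r = 0.62 there, and r of Hdac7 with Sirt2 went from -0.57 to -0.021. In HFpEF+TYA-018 mice 1 library, V2550, was the highest of 11 for Hdac4, Hdac5, Hdac6, Hdac7, Hdac10 and Atat1, that is for 6 of the 9 genes.

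**Figure D4:**
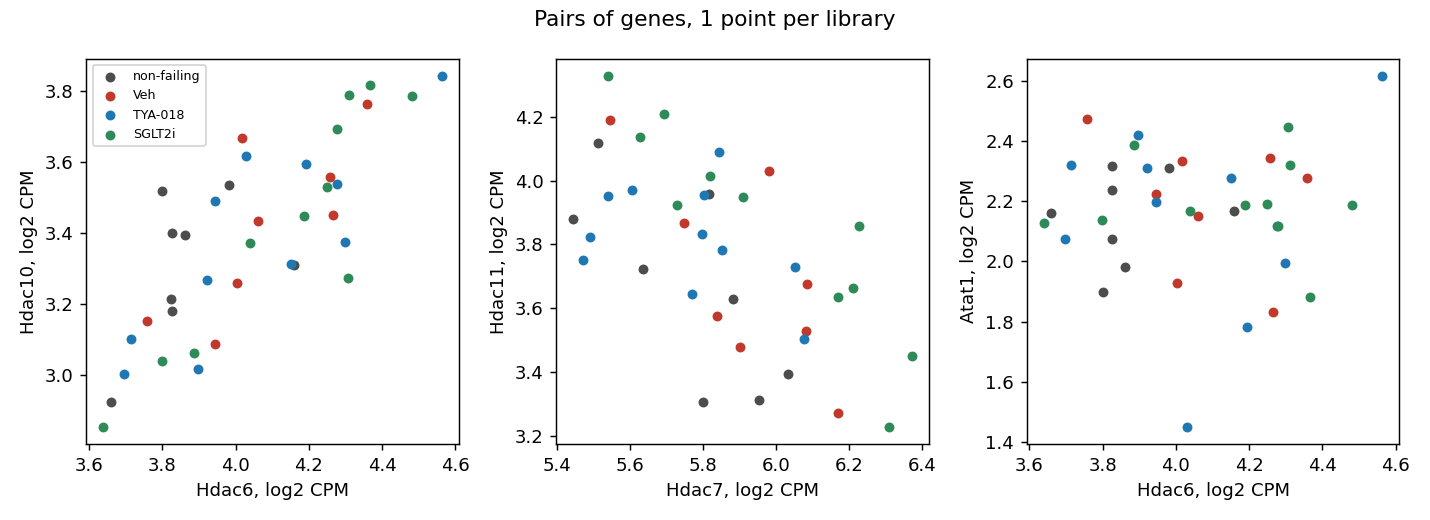
Log2 CPM of 3 pairs of genes, 1 point per library, coloured by group. Hdac6 rises with Hdac10, Hdac7 falls with Hdac11, and Hdac6 with Atat1 shows no slope (r = 0.81, -0.74 and -0.0065 after centring within groups).

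Among all other genes tested, the 3 whose log2 CPM was most like that of Hdac6 over the 38 libraries, as a description, were Trmt1 (r = 0.89), a tRNA methyltransferase, Tbc1d17 (0.89), a Rab GTPase-activating protein, and Stk11ip (0.88). The single most alike gene was Nxf1 for Hdac10 (0.93), an mRNA export factor, Card10 for Hdac7 (0.90), Lama5 for Hdac5 (0.84), a laminin chain, and Ankrd9 for Hdac4 (0.73). It was Ank1 for Hdac11 (0.90), Dnajb12 for Sirt2 (0.86), 6330408A02Rik for Atat1 (0.64) and Ttc7 for Hdac9 (0.61). The last 2 values were the lowest, as no tested gene followed Atat1 or Hdac9 more closely.

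The remaining genes around these enzymes were read from 6 lists. Of 10 other deacetylases (class I and the remaining sirtuins), 0 passed in any of the 6 comparisons with edgeR. In HFpEF+TYA-018 against HFpEF+Veh 2 had an unadjusted p under 0.05, beside 17.5% of all genes. The one with the smallest p in HFpEF+TYA-018 against HFpEF+Veh was Sirt4, a mitochondrial sirtuin, at 7.52 ± 0.656 CPM (SD, n = 8) in HFpEF+Veh and 8.78 ± 0.742 CPM (SD, n = 11) in HFpEF+TYA-018 mice (log2 fold change 0.22, 95% interval 0.052 to 0.40, edgeR adjusted p = 0.151). Of 21 tested class IIa kinases, 14-3-3 proteins and the export receptor, 0 passed in HFpEF+Veh against non_failing, in either drug against HFpEF+Veh or between the drugs, with 2, 2, 5 and 3 at an unadjusted p under 0.05. Prkd1, a PKD kinase, came closest, with 7.09 ± 1.69 CPM in HFpEF+Veh and 5.06 ± 0.797 CPM in HFpEF+TYA-018 mice (-0.48, 95% interval -0.78 to -0.19, edgeR adjusted p = 0.0688). Of 12 class IIa partners, 0 passed in HFpEF+TYA-018 against HFpEF+Veh and 1 had an unadjusted p under 0.05, Tbl1x, a corepressor subunit (-0.15, 95% interval -0.28 to -0.0092, edgeR adjusted p = 0.249).

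One class IIa partner, the SRF coactivator Myocd, was lower in the HFpEF hearts. It stood at 16.7 ± 2.05 CPM (SD, n = 8) in non_failing and 10.3 ± 3.54 CPM (SD, n = 8) in HFpEF+Veh mice, where the range was 6.70 to 16.9 CPM. The HFpEF+Veh library V2532, its highest, was the only one within the non_failing range. The log2 fold change was -0.69 (SE 0.19, edgeR adjusted p = 0.0310, below the non_failing mean in 7 of 8 libraries). It passed in 30 of 38 fits without 1 library, and not in those lacking V2501, V2503, V2504, V2508, V2521, V2527, V2529 or V2530, with adjusted p up to 0.0730. Of 12 HDAC6 substrates and partners, Cttn, which encodes the actin regulator cortactin, passed at the edge in the same comparison, with 29.8 to 40.4 CPM in non_failing and 38.5 to 44.5 CPM in HFpEF+Veh mice (0.26, edgeR adjusted p = 0.0498, higher in 8 of 8). Leaving out 1 library ended that call in 29 of 38 fits, with adjusted p up to 0.113, and it was also lost in 4 of 9 other settings (no filter on low counts, the length offset and both TPM scales). In HFpEF+TYA-018 against HFpEF+Veh mice 0 of the 12 passed with edgeR and 2 had an unadjusted p under 0.05, and Dync1h1, the dynein heavy chain, had the smallest p (-0.16, 95% interval -0.26 to -0.062, edgeR adjusted p = 0.0758).

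The next list held 17 tested genes for enzymes that modify tubulin at other sites and for their subunits. Of these, 1 passed in HFpEF+Veh against non_failing (Ttll1, beside 3.15% of all genes). In HFpEF+TYA-018 against HFpEF+Veh 1 passed (Vash1, beside 1.93% of all genes). Against non_failing mice 2 passed in HFpEF+TYA-018 (both genes) and 1 in HFpEF+SGLT2i mice (Ttll1), with 0 in the other 2 comparisons. Ttll1, the catalytic subunit of the tubulin polyglutamylase complex, ranged from 52.2 to 80.9 CPM in non_failing and from 34.1 to 47.6 CPM in HFpEF+Veh mice. As a description, these groups did not overlap. Ttll1 was picked because it passed, and the share of all genes without overlap is not given. The log2 fold change was -0.59 (SE 0.11, 95% interval -0.82 to -0.36, edgeR adjusted p = 0.00162, lower in 8 of 8), and the call stayed in all 38 fits without 1 library and in all 9 other settings. Its medians were 59.7 CPM in non_failing, 44.4 CPM in HFpEF+Veh, 48.8 CPM in HFpEF+TYA-018 and 46.5 CPM in HFpEF+SGLT2i mice.

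Vash1, a carboxypeptidase that removes the last tyrosine of alpha-tubulin, ranged from 3.52 to 7.39 CPM in HFpEF+Veh and from 1.37 to 4.26 CPM in HFpEF+TYA-018 mice, with medians of 4.16 and 2.63. All 11 HFpEF+TYA-018 libraries were below the HFpEF+Veh mean, although the ranges overlapped. The log2 fold change was -0.81 (SE 0.20, 95% interval -1.20 to -0.41, edgeR adjusted p = 0.0206). The call was lost without the HFpEF+Veh library V2529, the highest of its group (adjusted p = 0.0615), and when only these 2 groups were fitted (0.0706). In HFpEF+SGLT2i mice Vash1 ranged from 2.52 to 6.10 CPM, and the difference between the drugs did not pass (edgeR adjusted p = 0.202).

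Of 5 alpha-tubulin genes tested, 2 were called in HFpEF+TYA-018 against HFpEF+Veh mice, both higher under the drug, beside 1.93% of all genes (0.835% higher). Tuba8 ranged from 88.4 to 118 CPM in HFpEF+Veh and from 112 to 178 CPM in HFpEF+TYA-018 mice (log2 fold change 0.47, SE 0.11, edgeR adjusted p = 0.0208, higher in 11 of 11). Tuba4a ranged from 180 to 354 CPM in HFpEF+Veh and from 209 to 559 CPM in HFpEF+TYA-018 mice (0.59, SE 0.16, edgeR adjusted p = 0.0463, higher in 10 of 11). Their non_failing medians were 124 and 405 CPM. Without the HFpEF+Veh library V2530 the call of Tuba8 was lost (adjusted p = 0.0527), and that of Tuba4a held in only 14 of 38 fits without 1 library; neither passed on either TPM scale or with library size alone, nor did Tuba4a with the length offset or with only these 2 groups. Without V2523 the adjusted p was 0.0498 for Tuba8, 0.0570 for Tuba4a and, for the tubulin modifier Vash1, 0.0316 (edgeR). Alpha-tubulin genes are close in sequence, and the division of shared reads among them is uncertain.

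**Figure D5:**
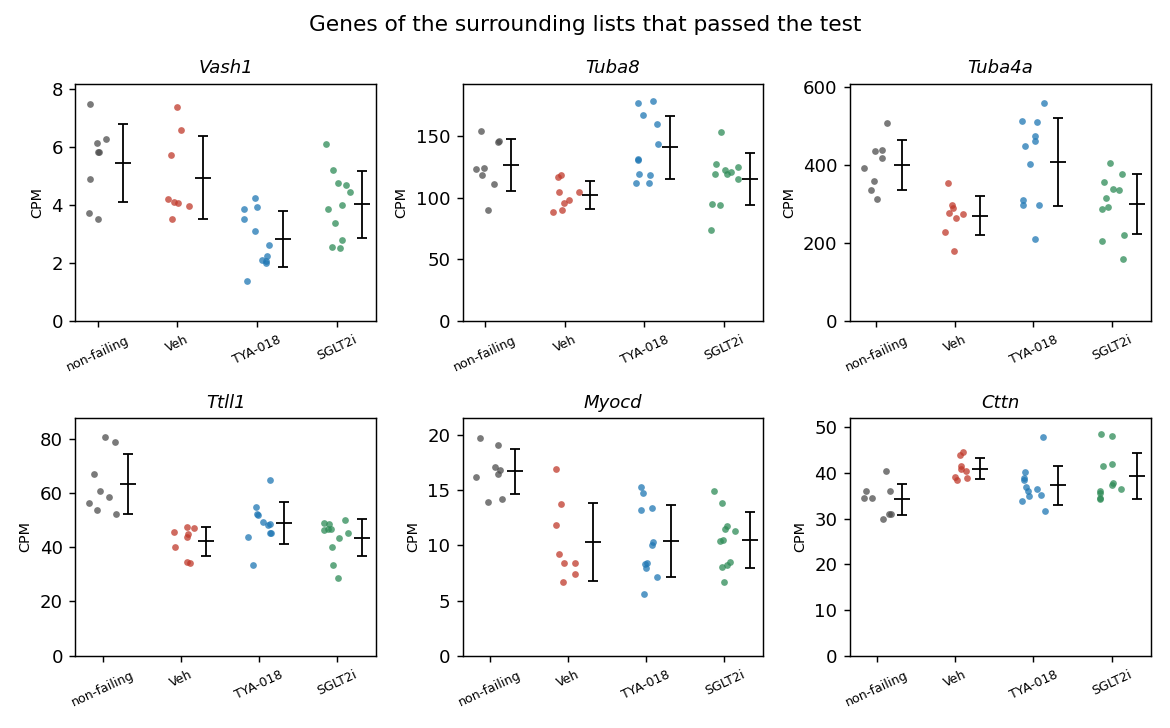
Level in CPM (linear axis from 0) of the 6 genes of the surrounding lists that passed the edgeR threshold in HFpEF+Veh against non_failing (Ttll1, Myocd, Cttn) or in HFpEF+TYA-018 against HFpEF+Veh mice (Vash1, Tuba8, Tuba4a), 1 point per library, with the mean and SD of each group. These genes were picked because they passed. As a description, the groups of Ttll1 did not overlap in its comparison, and the share of all genes without overlap is not given.

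Of the 77 genes tested in the 6 lists together, 3 passed in HFpEF+Veh against non_failing mice (3.90%, against 3.15% of all genes), 3 in HFpEF+TYA-018 against HFpEF+Veh mice (3.90%, against 1.93%) and 0 in HFpEF+SGLT2i against HFpEF+Veh mice (against 0.850%) or between the drugs, with 10 and 12 at an unadjusted p under 0.05 in the last 2. DESeq2 called 0 and 1 there. How the count stood to the share of all genes in HFpEF+TYA-018 against HFpEF+Veh changed with the scaling: with library size alone 6 of the 77 passed beside 7.96% of all genes, and on the log2(TPM + 1) scale 1 beside 0.273%. Without V2523 the first 3 counts were 3, 4 and 0, Tuba4a dropping out of the second while Prkd1 (edgeR adjusted p = 0.0487) and Dync1h1 (0.0471) came in. The count of all genes without V2523 is given only for HFpEF+SGLT2i against HFpEF+Veh, so the counts of 3 and 4 stand without a baseline. Counts of cardiomyocyte, fibroblast, endothelial, smooth muscle, atrial and adipocyte markers in the first 2 comparisons are given above. Their part in the values of Myocd, Cttn, Ttll1, Vash1, Tuba8 and Tuba4a was not tested. The list medians in HFpEF+TYA-018 against HFpEF+Veh mice ran from -0.045 (kinases, 14-3-3 and export) to 0.066 (other deacetylases), against -0.0088 over all genes. Against non_failing mice 6 of the 77 passed under TYA-018 (7.79%, against 7.39% of all genes), all lower, and 6 under Empagliflozin (7.79%, against 6.45%), 5 lower and 1 higher; the rule for naming does not cover these 2 comparisons, and Camk2d, Mef2a, Mef2d and Tuba1a, which it names nowhere else, were noted after their values were seen. The CaMKII gene Camk2d, whose product phosphorylates HDAC4, was lower in HFpEF+TYA-018 (-0.33, edgeR adjusted p = 0.00924, 10 of 11 libraries) and HFpEF+SGLT2i mice (-0.46, adjusted p = 0.000329, 11 of 11), and Mef2d, a MEF2 factor that class IIa enzymes bind, was higher in HFpEF+SGLT2i mice (0.35, edgeR adjusted p = 0.00177, 11 of 11). All 3 calls stayed in the 38 fits without 1 library. Myocd was lower in both groups (-0.68, edgeR adjusted p = 0.0103, and -0.67, adjusted p = 0.0135), as was Ttll1 (-0.38, adjusted p = 0.0203, lost without the non_failing library V2502 at 0.0531, and -0.54, adjusted p = 0.000734). The MEF2 factor gene Mef2a was also lower in both (-0.21, edgeR adjusted p = 0.0176, lost without V2503 at 0.0615, and -0.18, adjusted p = 0.0411, called in 29 of 38 fits without 1 library and 3 of 9 other settings). Vash1 (-0.95, edgeR adjusted p = 0.00156) and Tbl1x (-0.25, adjusted p = 0.0173, lost without V2510 at 0.0575) were lower in HFpEF+TYA-018 mice, and the alpha-tubulin gene Tuba1a in HFpEF+SGLT2i mice (-0.40, adjusted p = 0.0354, called in 30 of 38 fits and 6 of 9 other settings). In HFpEF+Veh mice Camk2d stood at 63.7 ± 4.68 CPM (SD, n = 8) against 77.2 ± 3.97 CPM in non_failing mice, with edgeR adjusted p = 0.0786. Cardiomyocyte markers were called lower against non_failing mice in 1 of 8 cases under TYA-018 (7 of 8 below 0) and in 4 of 8 under Empagliflozin (6 of 8 below 0). Of 8 fibroblast markers 1 was called higher under TYA-018 (6 above 0), and 1 higher and 1 lower under Empagliflozin (7 above 0). Under TYA-018 1 of 8 endothelial markers was called higher, with 7 of 8 below 0, and of 8 pericyte and smooth muscle markers 1 was called higher and 1 lower; under Empagliflozin 0 of either list were called with edgeR, with 1 and 3 at an unadjusted p under 0.05. Of 7 atrial markers tested 1 was called higher under TYA-018, and 1 higher and 1 lower under Empagliflozin. In each case 4 were above 0 and 3 below. Cidea, the only 1 of 8 adipocyte markers tested, was called higher in both groups. The part of these markers in the values of the genes called against non_failing mice was not tested.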

How the data were processed

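RNA of 38 left ventricles was captured by its poly(A) tail and sequenced with a stranded kit, 1 library per mouse, 8 to 11 per group by the sample titles. The authors trimmed reads with fastp, quantified them with Salmon 1.6.0 against mouse transcripts of GRCm38 and summed transcripts to genes with tximport; the submitters' processing notes name hg38 as the build, and the labels and methods differ on read length. The deposited expected counts are estimated reads per gene, the deposited TPM values are scaled by the authors per transcript length and library, and the authors' table of effective lengths (other unit, bases) links them. Columns left unmapped numbered 0.

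Expected counts were rounded, genes with low counts removed with filterByExpr, and 13765 genes fitted with edgeR 4.0.16 (TMM, quasi-likelihood, all 4 groups in 1 fit, Benjamini-Hochberg over all genes, threshold 0.05). Effective lengths were tested with limma 3.58.1 on the log2 scale. Alternatives used DESeq2 1.42.0, sva 3.50.0 (1 surrogate variable), limma on log2(TPM + 1) and log2(TPM + 0.1), scaling by library size alone, no filter, a mean CPM of at least 1, a length offset, only 2 groups, and each library left out. Log2 CPM used a prior count of 2. Libraries held 21451631 to 59280407 counts, so the least counted gene had 85.0 reads. The p-values were computed against the spread between mice. The fits were tested on simulated data with known changes. Coordinates are from GENCODE M21 (GRCm38). Named genes were all 9 enzymes, in each list the genes that passed (at most 3 by p, otherwise the 1 with the smallest p under TYA-018), and the genes most alike. The genes and lists were chosen with earlier results of these data known.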

Additional observations from a re-analysis of the deposited data

How the results depend on the processing

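Of 54 log2 fold changes of the 9 genes (9 genes, 6 comparisons), each under 9 other settings and 38 fits without 1 library, 2422 of 2538 values kept their direction and side of the threshold, 13 passed it newly and 103 changed sign, none of these past the threshold; the cause was not tested. Counts of called genes among the 9 moved with 1 surrogate variable, to 1 in HFpEF+TYA-018 against HFpEF+Veh (Hdac4; 7.42% of all genes passed in that fit), 1 in HFpEF+TYA-018 against HFpEF+SGLT2i (Hdac7; 4.29%) and 2 in HFpEF+SGLT2i against non_failing (Hdac5, Hdac6; 12.8%), and with DESeq2 to 1 in the last (Hdac5; 8.20%). Without 1 library they ran from 0 to 1 in HFpEF+TYA-018 against non_failing and from 0 to 2 in HFpEF+SGLT2i against non_failing, and Hdac4 in the former from 0.24 to 0.44, Hdac5 in the latter from 0.22 to 0.29 and Hdac6 from 0.25 to 0.33. In the lists, the 3 calls of HFpEF+Veh against non_failing became 5 with DESeq2 (4.35% of all genes), 5 with only these 2 groups (2.59%) and 5 with 1 surrogate variable (5.35%), and 1 to 4 without 1 library. The 3 calls of HFpEF+TYA-018 against HFpEF+Veh became 6 with library size alone (7.96% of all genes), 5 with DESeq2 (2.92%), 1 on either TPM scale (0.273% and 0.295%), 1 with only these groups (0.437%) and 7 with 1 surrogate variable (7.42%), and 1 to 4 without 1 library. In HFpEF+SGLT2i against HFpEF+Veh the count of 0 became 1 with library size alone (1.08%) and 1 with 1 surrogate variable (1.13%), and 0 to 1 without 1 library, and between the drugs it became 1 with DESeq2 (0.973%) and 6 with 1 surrogate variable (4.29%). The count of 15 correlated pairs became 9 on the log2(TPM + 1) scale and 2 without the first principal component, and it was 15 without the 2 farthest libraries, 13 of them the same pairs. Members called by effective length between the drugs ran from 0 to 1 without 1 library. No paired analysis was possible because the mouse numbers differ in every group.

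With library size alone, log2 fold changes were 0.017 (Hdac4) and 0.058 (Hdac9) in HFpEF+Veh against non_failing, -0.0014 (Hdac9), -0.036 (Hdac11) and -0.0095 (Sirt2) in HFpEF+TYA-018 against HFpEF+Veh, -0.010 (Hdac7), -0.0050 (Hdac6) and -0.053 (Hdac10) in HFpEF+SGLT2i against HFpEF+Veh, and -0.041 (Sirt2) and -0.042 (Atat1) in HFpEF+TYA-018 against non_failing. On the log2(TPM + 1) scale, with log2(TPM + 0.1) second, they were 0.0072 and 0.016 (Hdac4), 0.033 and 0.039 (Hdac9) and 0.044 and 0.045 (Sirt2) in the first comparison, -0.0028 and -0.0017 (Hdac11) and -0.019 and -0.020 (Sirt2) in the second, -0.0080 and -0.0082 (Hdac5), -0.098 and -0.10 (Hdac7), -0.0040 and -0.0066 (Hdac6) and -0.11 and -0.13 (Hdac10) in the third, and 0.043 and 0.044 (Hdac7) in HFpEF+TYA-018 against non_failing. With the length offset they were 0.0014 (Hdac6) under TYA-018, -0.017 (Hdac7) and -0.031 (Hdac10) under Empagliflozin, 0.013 (Sirt2) between the drugs and 0.090 (Hdac7) in HFpEF+TYA-018 against non_failing. With 1 surrogate variable they were -0.014 (Hdac10) in HFpEF+Veh against non_failing, 0.025 (Hdac11) and 0.020 (Sirt2) between the drugs and -0.037 (Hdac10) in HFpEF+TYA-018 against non_failing.

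Without 1 library, values crossed 0 for Hdac4 (-0.088 to 0.073), Hdac9 (-0.065 to 0.032) and Hdac11 (-0.041 to 0.11) in HFpEF+Veh against non_failing, and for Hdac5 (-0.069 to 0.0072), Hdac6 (-0.072 to 0.027), Hdac10 (-0.093 to 0.012) and Atat1 (-0.093 to 0.017) in HFpEF+TYA-018 against HFpEF+Veh. They did so for Hdac10 (-0.028 to 0.067) and Atat1 (-0.053 to 0.035) in HFpEF+SGLT2i against HFpEF+Veh, for Hdac9 (-0.050 to 0.016), Sirt2 (-0.033 to 0.019) and Atat1 (-0.086 to 0.027) between the drugs, for Hdac7 (-0.050 to 0.037), Sirt2 (-0.0071 to 0.063) and Atat1 (-0.034 to 0.070) in HFpEF+TYA-018 against non_failing, and for Sirt2 (-0.0021 to 0.076) in HFpEF+SGLT2i against non_failing.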
